A study of Mus musculus with 32 samples.

Results

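The replication-dependent histone genes are the genes whose symbols begin with Hist1h to Hist4h, or their newer equivalents (H1f, H2ac, H2bc, H3c and H4c names). They were chosen by name from the protein-coding rows of the count table. The rule itself uses no measured value. Of 67 such genes in the GENCODE M21 annotation, 7 had a row in the table of 27728 genes: 2 of 6 H1 genes, 2 of 18 H2A genes and 3 of 18 H2B genes. The other 60, among them all 12 H3 genes and all 13 H4 genes, were not analysed here. The 7 genes are therefore a small and uneven sample of the family.

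The study concerns how much of the splicing factor U2af1 blood progenitors need, and it measured total RNA in 32 libraries of mouse progenitors sorted as Lin- cKit+ Sca1-. From E14.5 fetal liver came 3 libraries of U2af1(flox/flox) without Cre (the flox control), 3 of Vav1-Cre/U2af1(wt/flox) (heterozygous deletion), 3 of Vav1-Cre/U2af1(flox/flox) (homozygous deletion), 2 of Vav1-Cre alone and 4 of Vav1-Cre/U2af1(wt/S34F). The flox control carries no Cre, and Vav1-Cre is active in blood cells, so the deletion groups also differ from it by the presence of Cre. The labels place 10 of the fetal libraries in a batch A and 5 in a batch B, which holds the 4 S34F libraries and 1 of Vav1-Cre alone. From adult bone marrow came 17 libraries of animals that all carry Mx1-Cre, rTA and the transgene tgU2AF1(WT). Of these, 3 had the genotype U2af1(wt/wt) and no treatment (untreated wild type), and 14 had U2af1(flox/S34F). The latter received pIpC, which switches on Mx1-Cre, and doxycycline chow, which induces the U2AF1 transgene, at 1250 ppm (4 libraries), 2500 ppm (6) or 10000 ppm (4). Dosed animals thus differ from the untreated wild type in genotype, pIpC and doxycycline together, and these cannot be told apart. Adult ages in weeks and the number of animals behind each library are not given in the sources used here, so the p-values below measure only the spread between these libraries. U2af1 itself was not analysed here.

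Replication-dependent histone genes supply the bulk of the nucleosome and linker histones that package newly made DNA, and their transcription rises in S phase. Their mRNAs as a rule have no introns and no poly(A) tail. Each instead ends after a short stem-loop that the stem-loop binding protein, Slbp, recognises, and the U7 snRNP with the CPSF endonuclease cuts just behind it. H1 is the linker histone, whereas H2A and H2B pair as dimers in the nucleosome core. Some genes of the family, Hist1h1c and Hist1h2bc among them, are also known to give polyadenylated transcripts in differentiating cells. Hist1h1t, Hist1h2aa and Hist1h2ba encode the testis forms of H1, H2A and H2B. A library of ribosome-depleted total RNA, as used here, is in principle open to mRNAs with and without a tail. Of 21 other RNAs without a tail that were listed as a check, 2 were in the table, at a summed level of 0 to 0.187 counts per 1000000 counts, so the table does not show how well such RNA was recovered.

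The stem-loop is the part of these transcripts that sets them apart, and it is shown for the 4 genes in which it was found, with 7 annotated bases on either side. The 16 capitals are the stem-loop, whose outer 6 bases on each side pair. The sequences come from the GENCODE M21 transcripts.
Hist1h1c: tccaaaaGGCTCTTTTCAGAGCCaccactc
Hist1h1t: acccaaaGGCTCTTTTAAGAGCCacttaca
Hist2h2aa1: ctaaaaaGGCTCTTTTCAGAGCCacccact
Hist1h2be: aaccaaaGGCTCTTTTCAGAGCCacccaac
Hist1h1c, Hist2h2aa1 and Hist1h2be carry the same 16 letters. The motif searched was GG, 3 bases of any kind, TT, any base, T, any base, A, 3 bases of any kind and CC. Stem bases had to pair, with G and T allowed as a pair. The whole of each annotated transcript was searched on the transcript strand, and not only the part after the stop codon. The motif was found in 46 of the 67 annotated histone genes (68.7%) and in 81 of 21884 other protein-coding genes (0.4%).

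The stem-loop began 24 bases after the stop codon in Hist1h1c, 29 bases in Hist1h1t and in Hist1h2be, and 58 bases in Hist2h2aa1. In Hist2h2aa1 the annotated transcript ended 35 bases behind it. In Hist1h1c 840 further bases were annotated, in Hist1h1t 185 and in Hist1h2be 1861, so that these 3 models extend past the usual end of a histone mRNA. The annotated transcripts of Hist1h2aa and Hist1h2ba stop at the stop codon and leave no room for the motif after it. The single transcript of Hist1h2bc has 742 bases after the stop codon and 2 exons, and these letters are not in it. Of the 7 genes 5 were annotated with 1 exon, while Hist1h2bc and Hist1h2be had transcripts of 2 exons. The description of the family as intronless therefore covers 5 of the 7 models.

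**Figure D1:**
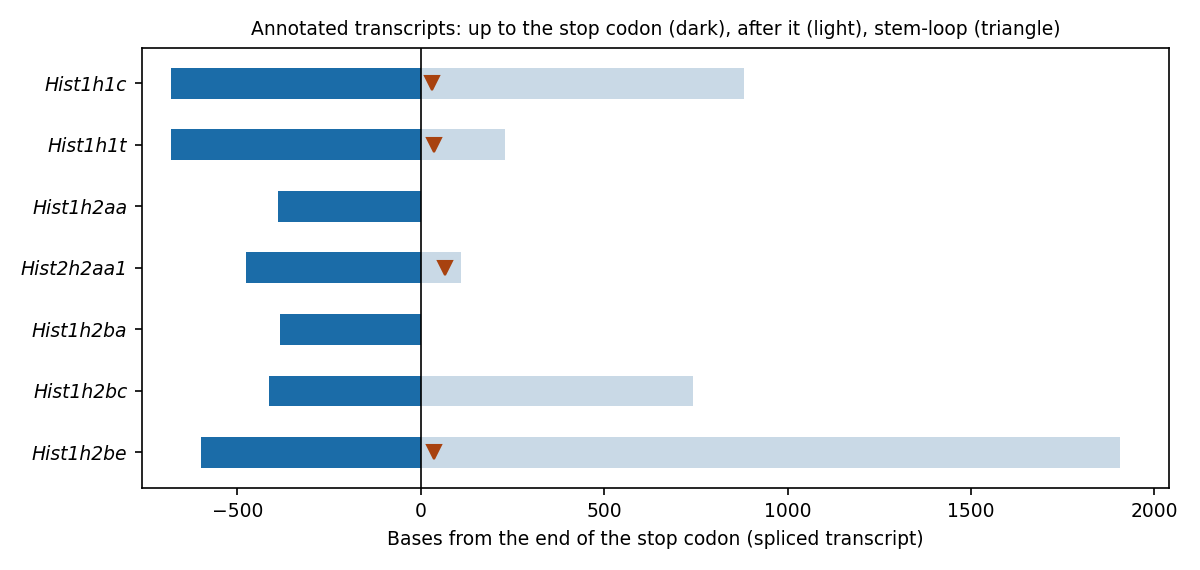
Annotated GENCODE M21 transcript of each of the 7 histone genes, in bases from the end of the stop codon: dark bars run from the transcript start to the stop codon, light bars after it, and the triangle marks the stem-loop. Hist1h2be has the longest stretch after the stop codon, 1906 bases, and Hist1h2aa and Hist1h2ba have none.

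The 2 H1 genes are shown with their promoters because they share 2 elements in nearly the same place and yet differ most in level within a type. Each run is the 250 bases before the RefSeq start (GRCm38.p6, plus strand), with an H1 element (AAACACA) and a CCAAT box in capitals.
Hist1h1c, chr13:23738557-23738806: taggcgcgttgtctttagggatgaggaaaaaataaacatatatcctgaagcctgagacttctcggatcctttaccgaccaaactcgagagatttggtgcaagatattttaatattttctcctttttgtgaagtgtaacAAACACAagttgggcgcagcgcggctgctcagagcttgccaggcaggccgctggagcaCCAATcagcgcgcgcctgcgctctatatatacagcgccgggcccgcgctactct
Hist1h1t, chr13:23695561-23695810: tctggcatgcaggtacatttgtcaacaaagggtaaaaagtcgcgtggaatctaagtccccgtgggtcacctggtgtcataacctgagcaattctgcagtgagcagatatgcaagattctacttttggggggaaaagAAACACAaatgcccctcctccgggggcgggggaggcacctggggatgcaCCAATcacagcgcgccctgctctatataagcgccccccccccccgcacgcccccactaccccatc
The H1 element lies 112 bases before the start in Hist1h1c and 114 bases in Hist1h1t, and the CCAAT box 54 and 65 bases before it. On either strand the letters AAACACA occur in 6.2% of 32851 promoter windows and CCAAT in 33.8%. Of 63 histone windows 14.3% hold the first and 82.5% the second. Windows were found for 6 of the 7 genes, Hist1h2bc being the other. A match is a description of letters and not evidence of a bound factor.

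Of the 7 genes 6 lie on chromosome 13 and Hist2h2aa1 on chromosome 3 (GRCm38). Hist1h1c (ENSMUSG00000036181) is a single exon at chr13:23738808-23740367 on the plus strand, and Hist1h1t (ENSMUSG00000036211) a single exon at chr13:23695814-23696725 on the same strand. Hist1h2bc (ENSMUSG00000018102) spans chr13:23684199-23692908 on the plus strand and Hist1h2be (ENSMUSG00000047246) chr13:23583670-23621124 on the minus strand. Hist2h2aa1 (ENSMUSG00000064220) is a single exon at chr3:96245497-96246082 on the plus strand. Hist1h2aa (ENSMUSG00000060081, chr13:23934462-23934851, plus) and Hist1h2ba (ENSMUSG00000050799, chr13:23933773-23934156, minus) are single exons that stand next to each other and point apart. Of the exons of Hist1h2be 11.2% are shared with Hist1h1e on the same strand, and 90.3% of those of Hist2h2aa1 with Gm20634 on the same strand. All of Hist2h2aa1 also lies under the antisense gene Gm20633. How reads in shared exons, or from near-identical histone copies, were assigned is not given in the sources used here, so the counts of both genes are uncertain.

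Total counts ran from 26588099 to 71251200 per library. Of 12 markers fixed for these progenitors 11 were in the table and none was at 0 in any group, and Ly6a, which encodes Sca1, was not analysed here. Libraries 1 and 2 of the 10000 ppm group stood apart by mature neutrophil markers. The summed level of the 6 such genes in the table (of 8 listed) was 34627 and 40515 counts per 1000000 counts (CPM) there, against 5557 and 760 in the other 2 libraries of that group. The sum was 784 to 1529 CPM in the homozygous deletion and 115 to 377 CPM in the flox control and heterozygous deletion libraries. None of the 6 markers was at 0 throughout any group. In sorted bulk RNA, a change in the mix of cells and a change of RNA per cell cannot be told apart.

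Together the 7 genes took 0.207% to 0.345% of the counts of a library (median 0.234%), and Hist1h1c alone held 63.4% to 75.2% of that. Levels below are CPM on TMM-scaled library sizes, with 1 scale over all 32 libraries. Between genes, levels are compared as CPM per kilobase of annotated exon. On that scale the mean over 32 libraries was 1070 for Hist1h1c, 237 for Hist1h2bc and 115 for Hist1h2be. The other 4 were far lower, at 1.66 for Hist1h1t, 1.55 for Hist2h2aa1, 1.33 for Hist1h2ba and 0.048 for Hist1h2aa. The order of the 2 abundant H2B genes rests on the length used, 1156 bases for Hist1h2bc and 4446 for Hist1h2be, whose 3 transcripts were joined. Before division by length their means were 274 and 512 CPM. The 3 testis forms were thus among the 4 lowest, and the only H2A genes with a row were both in that low class.

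Hist1h1c, which encodes the linker histone H1.2, had the highest level of the 7 in every group. In fetal liver it stood at 1852, 1463 and 1529 CPM in the flox control. The heterozygous libraries gave 1735, 1460 and 1358 CPM and the homozygous ones 1779, 2208 and 1957, so that 2 of the latter exceeded every flox control. The Vav1-Cre libraries gave 1748 (batch A) and 1367 CPM (batch B), and S34F gave 1580, 1430, 1501 and 1304. In marrow it stood at 1995, 1599 and 1619 CPM in the untreated wild type, at 1449, 1445, 1582 and 1607 under 1250 ppm, and at 1438 to 1748 (median 1636) under 2500 ppm. Under 10000 ppm the libraries split into 2639 and 2672 CPM on one side and 1517 and 1373 on the other, the high pair being the libraries with the high neutrophil sum.

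Hist1h1t, the testis linker histone H1t, was a low-count gene with 4 to 243 counts per library. Flox control libraries read 2.32, 2.39 and 2.07 CPM, heterozygous ones 2.78, 3.65 and 2.41, and homozygous ones 2.95, 2.16 and 3.64. It was 2.48 and 2.87 CPM with Vav1-Cre alone and 2.74, 2.06, 1.68 and 3.18 in S34F. All 15 fetal libraries lay above all 17 adult ones, which read 0.0910 to 1.21 CPM. How many of all genes split these libraries in this way was not counted. Between the fetal flox control and the untreated adult wild type alone, 67.4% of 12256 genes did not overlap. In marrow the untreated wild type had 0.438, 0.286 and 0.361 CPM and the 1250 ppm group 0.764, 0.466, 1.21 and 0.984. The 2500 ppm group had 0.0910 to 0.471 (median 0.295) and the 10000 ppm group 0.968, 0.759, 0.436 and 0.516.

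Hist2h2aa1, an H2A gene of the smaller cluster on chromosome 3, had 11 to 168 counts per library. Flox control libraries read 2.42, 1.58 and 1.60 CPM and heterozygous ones 1.20, 0.900 and 1.17, all below the control. Homozygous libraries read 0.978, 2.999 and 0.871 CPM, with library 3 well above the others. It was 0.963 (batch A) and 0.489 CPM (batch B) with Vav1-Cre alone and 0.488, 0.674, 0.441 and 0.566 in S34F. The untreated wild type read 0.876, 0.696 and 0.482, the 1250 ppm group 0.526, 0.393, 0.342 and 0.278, and the 10000 ppm group 1.48, 0.791, 0.744 and 0.445 CPM. The 2500 ppm libraries covered almost the whole adult range, from 0.185 to 1.36 CPM (median 0.820). Hist1h2aa, the testis H2A, gave 0 to 3 counts in each library, which is no more than the limit of 3 counts that a count of 0 allows, and it was too low to test.

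The 2 abundant H2B genes behaved differently across groups. Hist1h2bc ranged 3.33-fold from its lowest library to its highest, and Hist1h2be 1.496-fold, the narrowest range of the 7. For Hist1h2bc the flox control libraries read 497, 372 and 383 CPM, the heterozygous ones 447, 339 and 301, and the homozygous ones 469, 432 and 397. It read 428 (batch A) and 267 CPM (batch B) with Vav1-Cre alone, and 292, 240, 253 and 230 in S34F. In marrow it read 178, 162 and 149 CPM in the untreated wild type, 219, 206, 226 and 238 under 1250 ppm, 175 to 233 (median 197) under 2500 ppm and 236, 245, 187 and 180 under 10000 ppm. Fetal batch A was highest and the untreated adult wild type lowest.

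For Hist1h2be the flox control libraries read 561, 448 and 481 CPM, the heterozygous ones 505, 453 and 433, and the homozygous ones 555, 649 and 515. It read 517 and 511 CPM with Vav1-Cre alone and 599, 535, 547 and 450 in S34F. In marrow it read 561, 471 and 502 CPM in the untreated wild type, 457, 499, 478 and 457 under 1250 ppm, 458 to 559 (median 491) under 2500 ppm and 632, 632, 491 and 448 under 10000 ppm. Its fetal and adult ranges overlapped almost fully. Hist1h2ba, the testis H2B, stayed between 0.165 and 0.882 CPM (12 to 46 counts) over the 32 libraries.

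**Figure D2:**
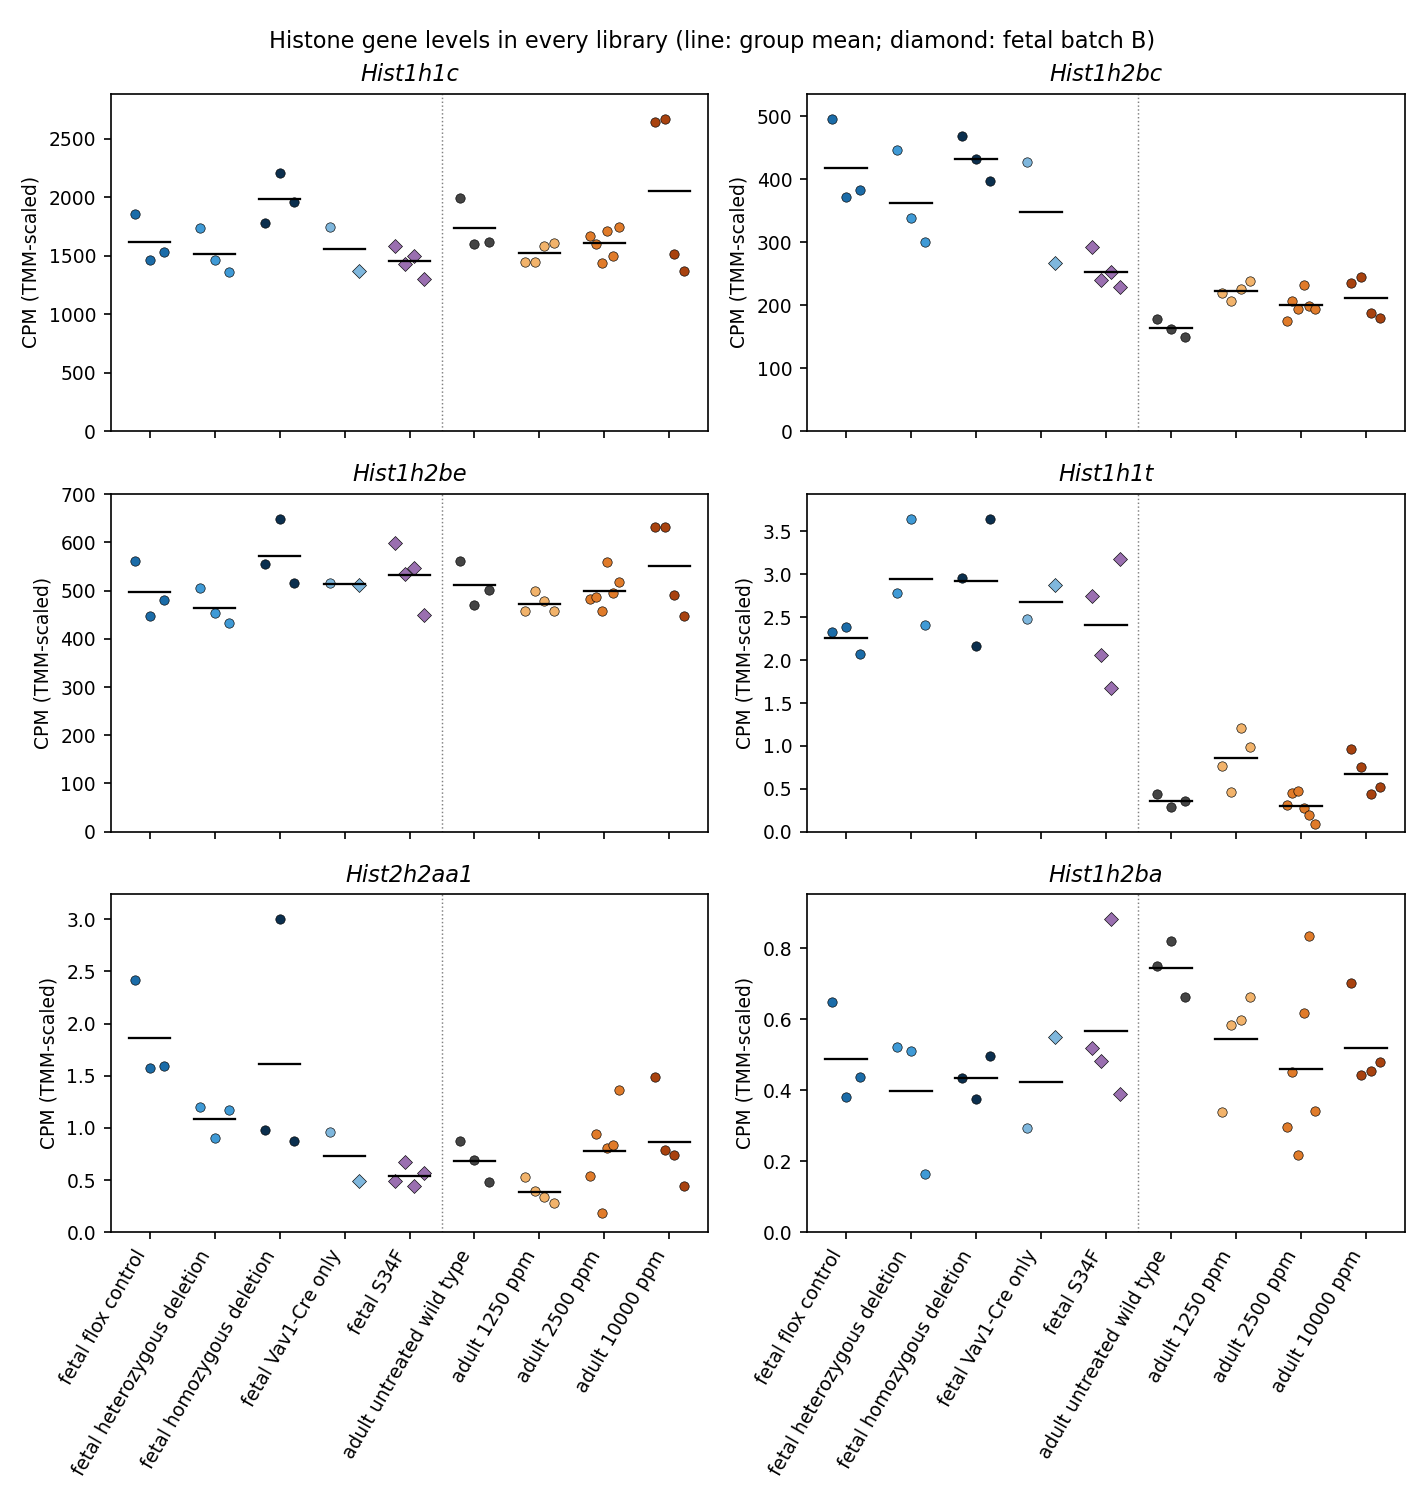
Level in CPM (linear axes from 0) of the 6 tested histone genes in each of the 32 libraries, by group; points are libraries, lines are group means, diamonds are fetal batch B and the dotted line divides fetal from adult. Hist1h1t separates the 15 fetal from the 17 adult libraries, a split whose share over all genes was not counted. Hist1h1c is highest in 2 of the 4 libraries of the 10000 ppm group.

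The first question the design poses is whether losing 1 or both copies of U2af1 in the fetus changed these mRNAs. Of the 7 genes 6 passed the filter on low counts in every comparison, and calls are at a Benjamini-Hochberg adjusted p under 0.05 over all genes tested, from edgeR's quasi-likelihood test. None of the 6 was called between homozygous deletion and flox control, where 41% of 12678 genes were called, and DESeq2 called none. At an unadjusted p under 0.05 there was 1, Hist1h1c, at a log2 fold change of 0.26 ± 0.11 (SE, 3 against 3 libraries; edgeR adjusted p = 0.0821). DESeq2 placed it at the threshold (adjusted p = 0.050009) without calling it, and edgeR called it higher without the filter on low counts (adjusted p = 0.0229) and with the replicate number as a block (0.0166). The ranges of Hist1h1c in these groups overlapped, since flox control library 3 (1852 CPM) lay above homozygous deletion library 2 (1779 CPM), and none of the 6 genes separated, as 49.4% of all genes tested did. The median log2 change of the 6 genes was 0.10, against -0.02 over all genes tested.

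These fetal values turned on single libraries. Without flox control library 3, Hist1h1c (log2 0.39, edgeR adjusted p = 0.0104) and Hist1h2be (0.28, adjusted p = 0.0235) were called higher, and without homozygous library 2 Hist1h1c was (0.35, adjusted p = 0.0421). The replicate block also removes homozygous library 2, the only fitted fetal library of its number, so its Hist1h1c call is not a separate one. Without homozygous library 3, Hist2h2aa1 was called lower (log2 -1.02, edgeR adjusted p = 0.0321), from -0.23 with it.

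Between heterozygous deletion and flox control none of the 6 was called, nor at an unadjusted p under 0.05 (edgeR), and DESeq2 called none. Here 0.0316% of all genes were called. The 3 heterozygous libraries all lay above the 3 controls in Hist1h1t (log2 0.40 ± 0.25, edgeR adjusted p = 0.690) and all below them in Hist2h2aa1 (-0.76 ± 0.43, adjusted p = 0.672), and 16% of all genes tested separated without overlap.

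Between homozygous and heterozygous deletion, both of which carry Vav1-Cre, Hist1h1c was the 1 gene of 6 called. It was 1.26-fold higher in the homozygous deletion (log2 0.33 ± 0.11, edgeR adjusted p = 0.0330, 3 against 3 libraries, no overlap), in a comparison where 42.3% of all genes were called, 19.8% of all genes as higher, and 52.6% did not overlap. Hist1h2be also separated without overlap, at 0.25 ± 0.095 (edgeR adjusted p = 0.0540). The other 4 gave log2 changes of 0.53 (Hist2h2aa1), 0.21 (Hist1h2bc), 0.08 (Hist1h2ba) and -0.07 (Hist1h1t). The call for Hist1h1c was lost without heterozygous library 4 (edgeR adjusted p = 0.0985) or 5 (0.130) and without homozygous library 3 (0.118) or 4 (0.0772). Scaling by library totals, which moved the median of all genes from -0.05 to -0.17, also ended it (log2 0.22, adjusted p = 0.118). Markers of other cells moved in the same comparison (edgeR). Of the mature neutrophil markers 5 of 6 were higher in the homozygous deletion (sums above). All 5 B cell markers were lower (summed level 24.9 to 27.0 against 73.6 to 96.8 CPM), as were 8 of 9 macrophage markers, with 1 higher (39.6 to 62.5 against 48.3 to 83.4 CPM), and 5 of 10 hepatocyte markers (17.2 to 40.8 against 55.5 to 131 CPM). Of 4 T cell markers tested 2 were lower, none of 7 late erythroid markers was called, and of the 11 progenitor markers 4 were higher and 3 lower. At 0 throughout the homozygous deletion libraries were 1 macrophage and 2 T cell markers. The part of these shifts in the Hist1h1c difference was not tested.

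In adult marrow the question is whether transgene dose mattered for animals left with the S34F allele. Of the 6 genes 1 was called higher under 1250 ppm than in the untreated wild type, where 11.4% of 13338 genes were called and 6.76% were higher. The number of all genes called, 1524, fell to 68 without untreated library 2. Hist1h2bc was 1.36-fold higher (log2 0.45 ± 0.12, edgeR adjusted p = 0.0248), with all 4 dosed libraries above all 3 untreated ones. In the same comparison 4 of 5 B cell markers were higher (summed level 39.8 to 51.6 against 18.7 to 26.6 CPM), and 4 of 7 macrophage markers were higher, although their summed level was lower (147 to 204 against 350 to 453 CPM). Of 4 T cell markers tested 2 were higher, and 0 of 6 neutrophil, 4 hepatocyte, 7 late erythroid and 11 progenitor markers were called. Their part in the Hist1h2bc difference was not tested. Hist1h1t also separated without overlap (log2 1.24 ± 0.47, edgeR adjusted p = 0.0874), at 32 to 71 counts against 16 to 21, and 34.7% of all genes separated in this comparison. The Hist1h2bc call was lost on leaving out any 1 library but library 3 of the dosed group (edgeR adjusted p from 0.0587 without dosed library 1 to 0.0969 without untreated library 2), and with the replicate number as a block (adjusted p = 0.0664).

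Under 2500 ppm none of the 6 was called against the untreated wild type (0.487% of all genes), and DESeq2 called none. At an unadjusted p under 0.05 (edgeR) there was 1, Hist1h2bc (log2 0.30 ± 0.11, adjusted p = 0.200), and none of the 6 separated without overlap (9.35% of all genes). Under 10000 ppm none of the 6 was called (1.27% of all genes). Hist1h2bc lay above the untreated wild type in all 4 libraries (log2 0.38 ± 0.12, edgeR adjusted p = 0.0788), where 18.4% of all genes did not overlap, and it was called by DESeq2 (adjusted p = 0.0347) and without 10000 ppm library 3 (edgeR adjusted p = 0.0359). The 3 dose groups share the same 3 untreated libraries, so their Hist1h2bc differences are not independent of each other.

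Between 10000 ppm and 1250 ppm, groups of 1 genotype that both received pIpC, none of the 6 was called, in a comparison where 18.1% of all genes were, none separated without overlap (21% of all genes), and DESeq2 called none. At an unadjusted p under 0.05 (edgeR) there were 3: Hist1h1c (log2 0.44 ± 0.18, adjusted p = 0.0953), Hist2h2aa1 (1.17 ± 0.47, adjusted p = 0.0969) and Hist1h2be (0.22 ± 0.10, adjusted p = 0.146). All 3 were called without 10000 ppm library 4 (edgeR adjusted p = 0.0129 for Hist1h1c, 0.0225 for Hist1h2be and 0.0476 for Hist2h2aa1), and Hist1h1c without library 3 (0.0267). These are the libraries with the lower neutrophil sums of the 10000 ppm group (5557 CPM in library 3 and 760 CPM in library 4). The 1250 ppm libraries had sums of 823 to 1245 CPM. With libraries 1 and 2, those with the high sums, left out together, Hist1h1c came to -0.03 against 1250 ppm and to -0.26 against the untreated wild type (from 0.25; edgeR adjusted p = 0.242). Hist1h2be came to 0.03 and -0.11. The sign of the Hist1h1c difference from the untreated wild type was thus set by 2 libraries, left out together only after the data were seen. The part of the cell mix in these differences was not tested.

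**Figure D3:**
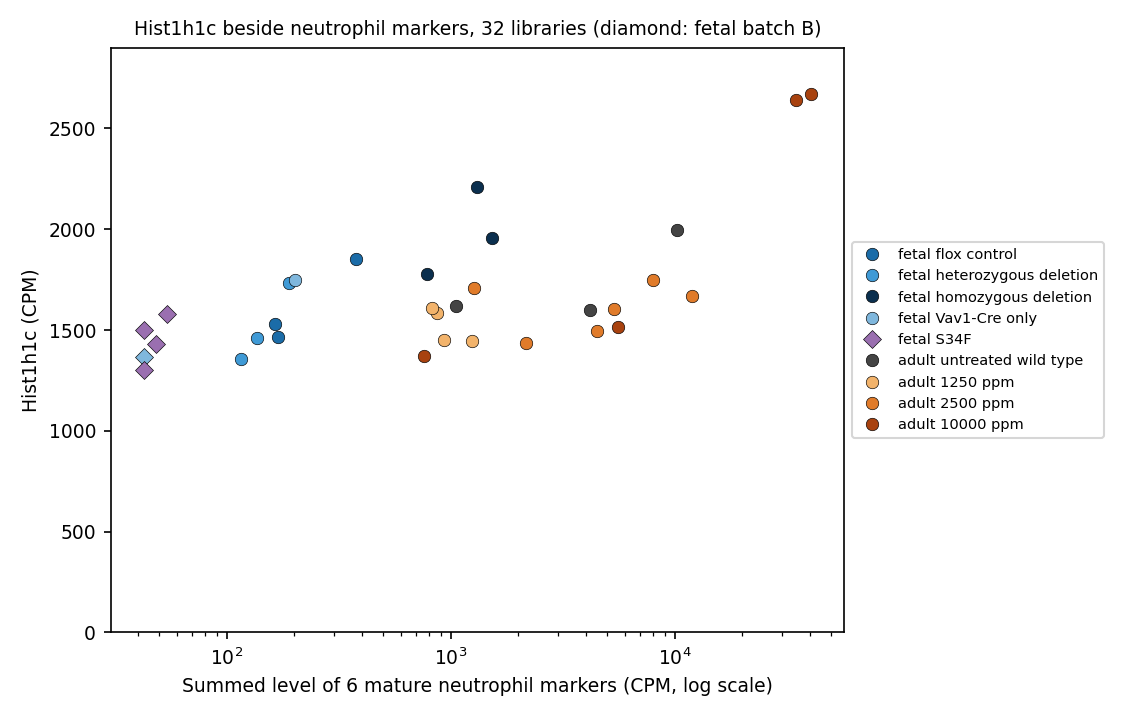
Hist1h1c (CPM, axis from 0) against the summed level of 6 mature neutrophil markers (CPM, log axis) in the 32 libraries, coloured by group with fetal batch B as diamonds. Libraries 1 and 2 of the 10000 ppm group stand at the upper right, at 2639 and 2672 CPM, and the homozygous deletion libraries stand to the right of the other fetal ones. Library 1 of the 2500 ppm group, with a marker sum of 11891 CPM, stands at 1668 CPM. Flox control library 3, with a sum of 377 CPM, stands at 1852 CPM.

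**Figure D4:**
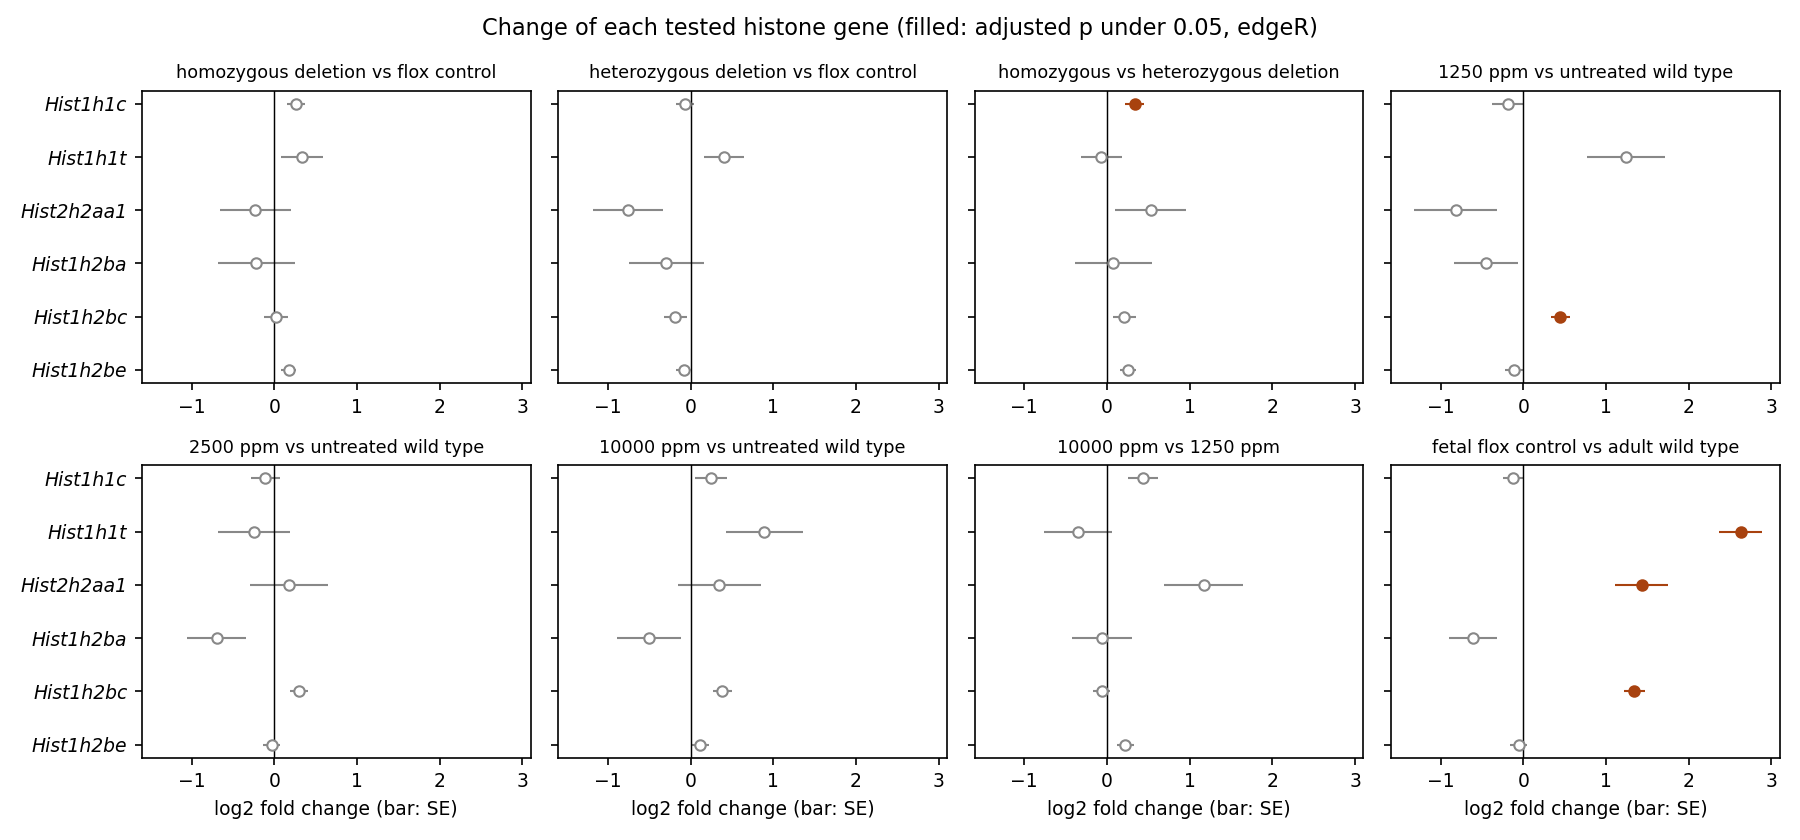
Log2 fold change (point) and SE (bar) of the 6 tested histone genes in the 8 comparisons, filled where edgeR's adjusted p was under 0.05. The 3 changes between fetal and adult controls are larger than those of the other comparisons that passed the test.

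The largest called differences were those between the control progenitors of fetal liver and adult marrow. Stage, tissue and genotype differ together there. The flox control libraries are all in batch A and no batch is given for the adult libraries, so batch may differ as well. These cannot be told apart. Of the 6 genes 3 were higher in the flox control than in the untreated wild type, where 59% of 12256 genes were called and 30% were higher. Hist1h1t was 6.18-fold higher (log2 2.63 ± 0.26, edgeR adjusted p = 0.000299, 3 against 3 libraries). Hist1h2bc was 2.53-fold higher (1.34 ± 0.13, adjusted p = 0.000261) and Hist2h2aa1 2.69-fold (1.43 ± 0.32, adjusted p = 0.00794). The 3 did not overlap between the groups. Hist1h2ba did not overlap either and was lower in the fetus (log2 -0.61 ± 0.29, edgeR adjusted p = 0.112), and 67.4% of all genes tested did not overlap. Without flox control library 3 Hist1h2ba was called lower (-0.86, adjusted p = 0.0420). Hist1h1c (-0.12 ± 0.12, edgeR adjusted p = 0.426) and Hist1h2be (-0.05 ± 0.10, adjusted p = 0.665) overlapped.

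Markers of other cells differed widely between these control groups. In the fetal libraries 9 of 10 hepatocyte markers were higher (summed level 112 to 649 against 15.2 to 26.4 CPM, with 5 at 0 throughout the adult group), as were all 5 B cell markers (62.5 to 126 against 18.7 to 26.6 CPM) and 5 of 7 late erythroid markers (683 to 992 against 242 to 538 CPM). Of 9 macrophage markers 8 were higher and 1 lower, with a summed level of 105 to 111 against 350 to 453 CPM. Of 6 neutrophil markers 4 were lower (164 to 377 against 1055 to 10259 CPM). Of 4 T cell markers tested 2 were higher, and of 11 progenitor markers 3 were higher and 5 lower. Their part in the 3 histone differences was not tested.

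The other fetal libraries were set beside these 3 genes. Batch B is 4 S34F libraries and 1 of Vav1-Cre alone, and in the S34F libraries batch and genotype cannot be told apart. The batch B Vav1-Cre library, which has no S34F, read 267 CPM for Hist1h2bc, 0.489 for Hist2h2aa1 and 2.87 for Hist1h1t. The batch A Vav1-Cre library read 428, 0.963 and 2.48 CPM. With 1 library on each side this difference was not tested. Hist1h1t was 2.07 to 3.65 CPM in batch A and 1.68 to 3.18 in batch B, both above the adult maximum of 1.21. Hist1h2bc was 301 to 497 CPM in batch A and 230 to 292 in batch B, against 149 to 245 in the 17 adult libraries, so batch B met the adult range. Hist2h2aa1 was 0.871 to 2.999 CPM in batch A and 0.441 to 0.674 in batch B, inside the adult range of 0.185 to 1.48. With the 2 Vav1-Cre libraries added to the fetal controls, Hist1h1t (log2 2.74) and Hist1h2bc (1.25) remained called and Hist2h2aa1 did not (1.04, edgeR adjusted p = 0.0837).

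The ratio of Hist1h2bc to Hist1h2be counts within a library does not depend on library scaling, and it was looked at after the values of both genes were seen, so it is given with no test. It was 0.666 to 0.885 in the 10 libraries of fetal batch A and 0.448 to 0.523 in the 5 of batch B. In marrow it was 0.297 to 0.344 in the 3 untreated libraries and 0.363 to 0.521 in the 14 dosed ones, with no overlap. How many pairs of genes would separate these libraries was not counted. Hist1h2bc alone overlapped, at 175 CPM in 2500 ppm library 1 against 178 in untreated library 1. By dose the mean was 0.471 ± 0.044 (SD, n = 4) at 1250 ppm, 0.401 ± 0.027 (n = 6) at 2500 ppm and 0.386 ± 0.012 (n = 4) at 10000 ppm. At 10000 ppm the ratio was 0.374 to 0.401 over libraries with higher and lower neutrophil sums, and the part of the cell mix in it was not tested. Within fetal batch A the flox control (0.837 ± 0.045, SD, n = 3), heterozygous (0.776 ± 0.098) and homozygous deletion (0.761 ± 0.091) overlapped.

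**Figure D5:**
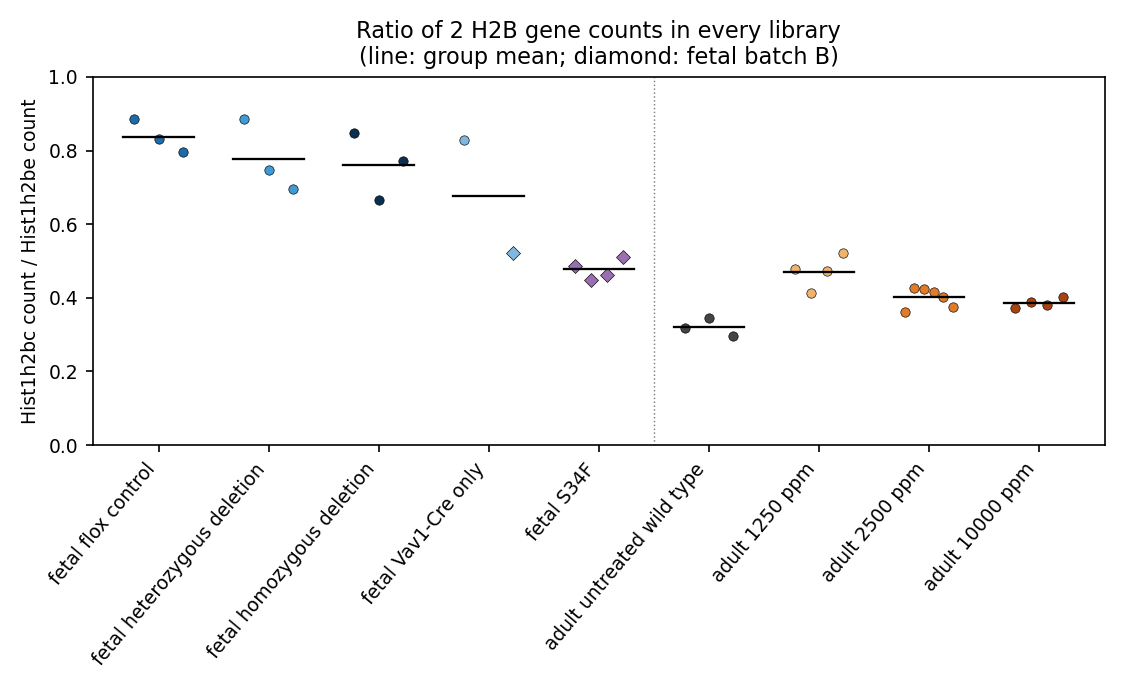
Ratio of the count of Hist1h2bc to that of Hist1h2be in each of the 32 libraries, by group; lines are group means and diamonds are fetal batch B. Batch A lies at 0.666 to 0.885, batch B at 0.448 to 0.523, dosed adults at 0.363 to 0.521 and untreated adults at 0.297 to 0.344.

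The S34F libraries have 1 control in their batch, so no test was made. None of the 6 genes with a mean of at least 10 counts was 2-fold or more from the batch B Vav1-Cre library in all 4 S34F libraries, which 1.36% of 11823 genes were. At 1.5-fold none was either. For each of the 6 genes the control value lay inside the range of the S34F libraries. For Hist2h2aa1 the control had 16 counts and the S34F libraries 15 to 32.

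The genes that make histone mRNA were followed in a list of 31 factors of its transcription and 3' end processing, 25 of which were in the table and tested. Between homozygous deletion and flox control 4 of the 25 rose and 3 fell, a smaller share than the 41% of all genes called there. The median log2 change of the list was 0.11, against -0.02 over all genes. Among those higher were Eri1, the exonuclease that trims the stem-loop end (log2 0.32 ± 0.048, edgeR adjusted p = 0.000520), and Slbp (0.24 ± 0.052, adjusted p = 0.00450). Coil, which encodes the Cajal body protein coilin (-0.30 ± 0.10, edgeR adjusted p = 0.0363), and Srrt (-0.21 ± 0.047, adjusted p = 0.00498) were lower. Npat, the coactivator of histone transcription, was at 0.03 ± 0.090 (edgeR adjusted p = 0.830). Against the heterozygous deletion, where 42.3% of all genes were called, 8 of the 25 rose and 1 fell, Slbp (0.30, adjusted p = 0.00103) and Eri1 (0.33, adjusted p = 0.000429) among the former, in the comparison in which Hist1h1c was called.

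In marrow 7 of the 25 were higher and 0 lower under 1250 ppm than in the untreated wild type (11.4% of all genes called), and 10 were lower and 0 higher under 10000 ppm than under 1250 ppm (18.1% of all genes). Coil was among both (log2 0.41 ± 0.086, edgeR adjusted p = 0.0133, and -0.37 ± 0.079, adjusted p = 0.00674), while Slbp was at 0.09 and -0.08 and Npat at -0.30 and 0.00 in these comparisons and were not called. The 1250 ppm libraries enter both comparisons. Between fetal and adult controls, where 59% of all genes were called, 16 of the 25 were higher and 4 lower, and the 4 lower ones were Npat (-0.43 ± 0.070, edgeR adjusted p = 0.00204), its partner Casp8ap2 (-0.44 ± 0.079, adjusted p = 0.00309), the H4 promoter factor Hinfp (-0.37 ± 0.090, adjusted p = 0.0114), and Eri1 (-0.39 ± 0.055, adjusted p = 0.00116). None was called between heterozygous deletion and flox control, or under 2500 or 10000 ppm against the untreated wild type (edgeR).

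Replication-independent histone variants are not confined to S phase and are mostly made from ordinary polyadenylated mRNAs. They gave 1 higher and 3 lower genes between homozygous deletion and flox control (edgeR), where 41% of all genes were called. The list median was -0.18. Of 17 listed 11 were in the table, and 7 were tested in the fetal groups. There H1fx, a linker histone variant, was lower at log2 -1.57 ± 0.18 (edgeR adjusted p = 0.000111), H2afy, which encodes macroH2A, at -0.58 ± 0.10 (adjusted p = 0.00124) and H2afv at -0.49 ± 0.098 (adjusted p = 0.00264). H2afz was higher (0.34 ± 0.071, edgeR adjusted p = 0.00354). Among the histone chaperones, which hand histones to DNA, 5 of 20 rose and 2 fell, a smaller share than that of all genes, with Asf1b at 0.53 ± 0.054 (edgeR adjusted p = 5.98e-05).

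Genes of DNA replication are given beside the histone genes because the latter are transcribed in S phase. Of 41 S-phase genes tested 5 were higher and 10 lower in the homozygous deletion than in the flox control (edgeR), a share below the 41% of all genes called there. Under 1250 ppm 14 were higher and 0 lower than in the untreated wild type (11.4% of all genes called), and 0 were higher and 15 lower under 10000 ppm than under 1250 ppm (18.1% of all genes). Between fetal and adult controls 24 were higher and 4 lower (59% of all genes). The median log2 change of the S-phase list was 0.00, 0.13, -0.19 and 0.22 in that order. Against the heterozygous deletion, where 42.3% of all genes were called, 9 S-phase genes were higher and 8 lower in the homozygous deletion. Of 25 G2 and mitosis genes 10 were higher and 3 lower there than in the flox control. Against the heterozygous deletion 15 were higher and 1 lower. Their counts were 1 and 0 under 1250 ppm, 0 and 7 between doses, and 12 and 6 in the stage comparison. The part of these genes in the histone differences was not tested. The histone genes in these comparisons are given one by one above, since a median over 6 genes moved with the gene and library choice: between the 2 doses it was 0.08, and -0.11 without 10000 ppm libraries 1 and 2, and in the stage comparison it was 0.64, and -0.04 by DESeq2, which kept 7 genes.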

How the data were processed

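Total RNA of 32 libraries of sorted mouse progenitors was prepared with ribosome depletion and sequenced as paired 150-base reads, per the labels' protocols. The authors mapped reads with HISAT2 2.1.0 to GRCm38, per the series' design text, and deposited raw counts per Ensembl gene. The counting tool, its annotation, strand setting, treatment of multiply mapping reads and choice of genes are not given in the sources used here. They bear on histone genes, which share sequence.

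Symbols and coordinates were taken from GENCODE M21 and promoters from RefSeq (GRCm38.p6). Of 27728 genes 27668 had a symbol, and 1 pseudogene row was left out of the family. Counts were tested with edgeR 4.0.16 (filterByExpr, TMM, quasi-likelihood; R 4.3.3, limma 3.58.1), with Benjamini-Hochberg adjustment at 0.05 over all genes tested. The 4 adult groups were fitted together, as were the 3 fetal groups of batch A used in tests, and the stage comparison used its own groups. The procedure was run on simulated counts with 1 spread for all genes and changes only in genes of mean count above 50. That run does not check calls on genes of lower count or of unlike spread. Alternatives were DESeq2 1.42.0, other scalings, no filter, a replicate block and each library left out. Genes named with values were the 2 highest per kilobase in each histone type, those called in a comparison with a mean of at least 50 counts, and those known to give polyadenylated transcripts. The ratio of the H2B counts was added after seeing the data. Members and lists were chosen with earlier results of these data known. No replicate pair of a group (46 pairs) agreed within sampling noise (chi-square per degree of freedom 3.85 to 522).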

Additional observations from a re-analysis of the deposited data

Results flagged for a closer look

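Among 28 sets of values (6 genes and the H2B ratio in the groups of 4 to 6 libraries), 1 held a library farther from the others than the group's spread allows (Dixon's test, which flags about 1 set in 20 by chance). Hist1h2ba, the testis H2B gene, stood at 0.703 CPM (45 counts) in library 1 of the 10000 ppm group, against 0.443 to 0.480 CPM in the other 3. That library is 1 of the 2 with high neutrophil markers, and the other one had 14 counts of Hist1h2ba. The cause was not tested.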

How the results depend on the processing

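The count of histone genes called, of 6 tested, changed in 6 of the 8 tested comparisons. Homozygous deletion against flox control had 0, with 1 without the low-count filter or with the replicate block, and 0 to 2 on leaving out 1 library. Homozygous against heterozygous deletion had 1, with 0 by library totals, 2 by DESeq2, RLE factors, no filter, the replicate block or only the compared groups, and 0 to 3 on leaving out 1 library. The 10000 ppm comparison with the untreated wild type had 0, with 1 by DESeq2 and 0 to 1 on leaving out 1 library. The 1250 ppm comparison had 1, with 2 by DESeq2 or only the compared groups, 0 with the replicate block and 0 to 1 on leaving out 1 library. The 2 doses compared had 0, and 0 to 3 on leaving out 1 library. The stage comparison had 3, with 3 to 4 on leaving out 1 library and 2 with the Vav1-Cre libraries added, an alternative chosen after seeing the data, as was leaving out 2 libraries of the 10000 ppm group. Heterozygous deletion, 2500 ppm and S34F stayed at 0 under all alternatives run. Leaving the histone genes out of the scaling changed no count. Apart from the alternatives named here, the cause was not tested.

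Of 63 alternative values for the 5 called results 50 kept the call, 13 lost it and 0 reversed. Of 609 for the 43 others 23 gained a call, and 41 uncalled values changed sign.

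Same-numbered libraries correlated at -0.11 to 0.10 over 7 fetal pairs, against -0.12 to 0.10 over 20 fetal pairs of unlike number. In the adult libraries the range was -0.23 to 0.46 over 19 same-numbered pairs (median 0.012). It was -0.36 to 0.31 over 87 pairs of unlike number (median -0.009). These values show no pairing in the fetal libraries and do not settle it in the adult ones. No block was run for the stage comparison, whose groups share only 1 number. The block ended the Hist1h2bc call at 1250 ppm and added Hist1h1c to homozygous against flox and Hist1h2be to homozygous against heterozygous (adjusted p = 0.0268).

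The number of all genes called, the background of each count, moved more. It was 4 for heterozygous deletion against flox (0 to 230 over alternatives with all libraries), 169 for 10000 ppm (1 to 1056), 65 for 2500 ppm (4 to 547), 1524 for 1250 ppm (438 to 3165) and 2420 between doses (769 to 2945, the lowest without 2 libraries). On leaving out 1 library it fell to 0 for heterozygous deletion, 10000 ppm and 2500 ppm, to 68 for 1250 ppm (without untreated library 2) and to 1118 between doses (without 1250 ppm library 5). By library totals the split of higher to lower calls went from 2350 to 2844 into 1607 to 3579 for homozygous against flox, from 2513 to 2845 into 1564 to 3905 against heterozygous, and from 1005 to 1415 into 1091 to 692 between doses. Depth limits Hist1h1t, Hist2h2aa1 and Hist1h2ba, with as few as 4, 11 and 12 counts.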
